A study of Mus musculus with 6 samples.

Results

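Phox2a, Isl1, Hand1, Hand2, Gata2, Gata3, Insm1 and Tfap2b are transcription factors of the sympathoadrenal lineage, the neural crest cells that form the chromaffin cells of the adrenal medulla and the sympathetic neurons. They were taken by gene symbol from the read count table of adrenal glands, and each of the 8 symbols stood in 1 locus out of 53103 named loci. All 8 loci passed the filter on low counts. The samples were 3 Armc5 KO glands, with the genotype Armc5(-/-), and 3 WT glands, all from female mice aged 30 weeks on a 129 sv X CD1 background. ARMC5 brings substrates to a ubiquitin ligase built on a cullin, and the human gene is mutated in bilateral macronodular adrenal hyperplasia. The labels do not say which part of Armc5 was deleted, whether the deletion was limited to a tissue, or whether each sample came from a separate animal.

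The sympathoadrenal factors act as a network. In the mouse embryo, bone morphogenetic proteins from the dorsal aorta act on neural crest cells, and Phox2a, Hand2, Gata2, Gata3 and Insm1 come on in them. Together these factors turn on tyrosine hydroxylase and dopamine beta-hydroxylase, enzymes of noradrenaline synthesis, and they keep being made in mature chromaffin cells. Several of them also work outside this lineage, Gata2 in blood precursors, mast cells and endothelium and Gata3 in T cells.

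The libraries held between 70547288 and 122924298 counts in KO and between 89806230 and 130573434 counts in WT. Armc5 was 7.47-fold lower in KO (edgeR adjusted p = 0.00041), with 269 to 473 counts in KO against 2233 to 3263 in WT. The glands held both cortex and medulla: 15 secretory genes of chromaffin cells summed to 6020 to 6570 CPM (read counts scaled to library size) in KO and 3000 to 4300 CPM in WT, and 9 cortical genes summed to 19800 to 21600 CPM in KO and 23300 to 39300 CPM in WT. KO replicate 3 stood apart by liver transcripts, with 2280 CPM of Alb against at most 2.19 CPM in the other KO libraries and 12.7 CPM in WT. Across all 21358 tested loci 393 were called (1.84%), 301 (1.41%) higher and 92 (0.431%) lower in KO, a call being an adjusted p under 0.05 in edgeR's quasi-likelihood test with Benjamini-Hochberg adjustment over all tested loci. With total counts alone as the scaling 94.8% of the calls were higher, against 76.6% with the TMM scaling used here, and the median log2 fold change of all loci was 0.22 instead of -0.01.

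The 8 factors were higher in every KO library than in every WT library, and 6 of them rose by the test. Isl1 rose 3.03-fold, Tfap2b 2.24-fold, Hand1 2.07-fold, Gata3 1.97-fold, Hand2 1.91-fold and Phox2a 1.73-fold, while Insm1 and Gata2, 1.80-fold and 1.72-fold higher, did not pass. None was called lower. The median log2 fold change of the 8 was 0.95, against -0.01 over all 21358 loci, and the 6 calls in 8 stand against a background of 1.41% of loci called higher. A complete separation with all KO libraries on top was seen in 8 of 8 factors and in 16.3% of all tested loci (14.2% had all KO libraries lowest). All 8 had an unadjusted p under 0.05 and a positive log2 fold change, as did 12.5% of loci, and Hand1, Isl1 and Tfap2b had a log2 fold change of 1 or more, as did 8.33%. In whole glands more cells of a type and more RNA per cell cannot be told apart.

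**Figure D1:**
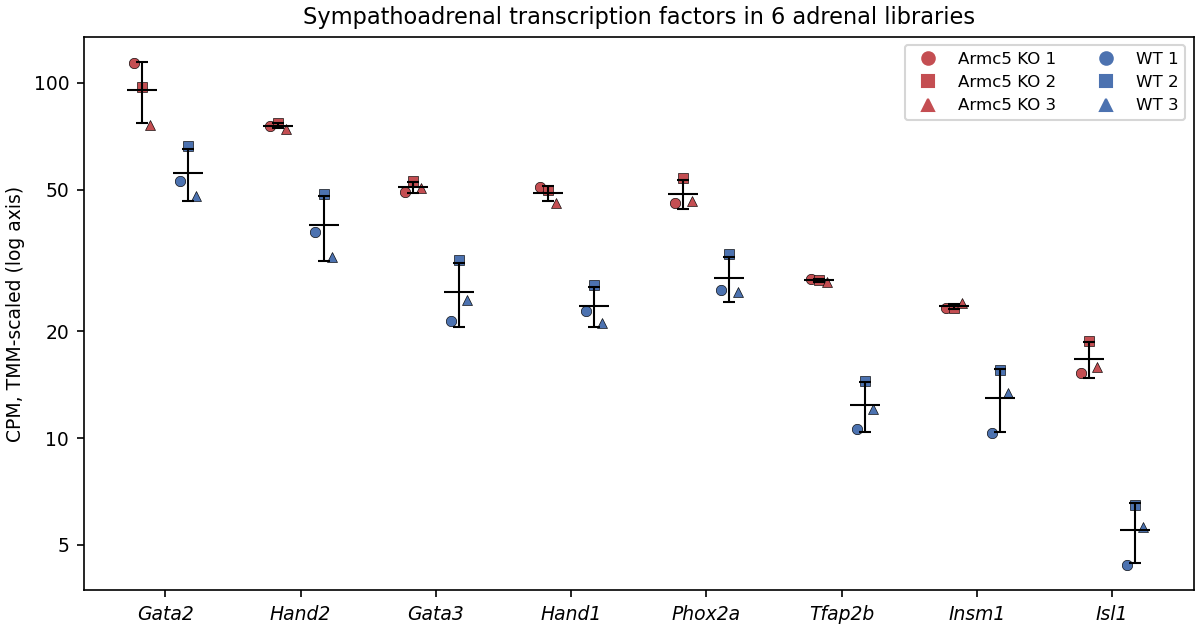
Levels of the 8 factors in each library, as TMM-scaled CPM on a log axis, with KO libraries (red) left of WT libraries (blue); bars are the mean and SD of 3 libraries. In each factor the KO points lie above the WT points, with the narrowest gap in Gata2, and WT replicate 2 (square) is the highest WT point of all 8.

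The calls depended on which libraries were in the fit, while no direction changed when any was left out. Of the 8 factors, 0 were called higher when KO replicate 1 was left out (edgeR adjusted p from 0.104 to 0.236, 0.0537% of all loci called higher). The count was also 0 without KO replicate 2 (0.102 to 0.222, 0.0765% of loci), without KO replicate 3 (0.0657 to 0.148, 0.12% of loci) and without WT replicate 3 (0.0938 to 0.232, 0.0709% of loci). Hand1, Isl1 and Tfap2b were the 3 called without WT replicate 1 (0.0315 to 0.15 over the 8, 0.923% of loci), and all but Gata2 were called without WT replicate 2 (0.0184 to 0.067, 2.42% of loci). Leaving out both WT replicate 1 and KO replicate 3 left 0 called (0.0929 to 0.157, 0.0612% of loci).

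Other scalings, filters and tools called between 4 and 8 of the factors in the unblocked design. Where a log2 fold change of 1 was also required 3 remained, beside 203 of all 21358 tested loci called higher. The same 6 were called with RLE factors (1.35% of loci called higher), total counts alone (2.99%), no filter beyond 1 count (0.742%) and at least 10 CPM in 3 libraries (2.45%). Gata2 joined them with equal counts of Rn7sk, a small nuclear RNA (3.20%), and Insm1 with limma-trend on the authors' log2 CPM (4.31%). All 8 were called by DESeq2 (6.40%) and by limma-voom with quality weights (4.76%), while 4 were called with unnamed loci kept (1.25%), Phox2a and Hand2 no longer among them.

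The sequences before the starts of 4 of the rising genes are shown because these genes mark the ends of the range, Isl1 and Tfap2b with the largest rises, Hand2 with the highest level per length and Phox2a with the smallest rise that passed. They are the 250 bases 5′ of the RefSeq start (GRCm38.p6), at chr13:116309689-116309938 on the minus strand, chr1:19211804-19212053, chr8:57320733-57320982 and chr7:101818063-101818312 on the plus strand. The Tfap2b window lies in an intron of longer annotated transcripts of the gene. Capitals mark the homeodomain core ATTA or its reverse complement TAAT, the letters that homeodomain proteins such as Phox2a and Isl1 share, and GATA or its reverse complement TATC, the letters of GATA proteins.
Isl1: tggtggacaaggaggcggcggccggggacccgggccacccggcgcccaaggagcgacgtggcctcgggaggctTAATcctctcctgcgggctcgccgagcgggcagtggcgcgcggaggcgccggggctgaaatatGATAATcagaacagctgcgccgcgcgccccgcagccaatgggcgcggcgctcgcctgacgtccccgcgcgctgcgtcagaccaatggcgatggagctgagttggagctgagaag
Tfap2b: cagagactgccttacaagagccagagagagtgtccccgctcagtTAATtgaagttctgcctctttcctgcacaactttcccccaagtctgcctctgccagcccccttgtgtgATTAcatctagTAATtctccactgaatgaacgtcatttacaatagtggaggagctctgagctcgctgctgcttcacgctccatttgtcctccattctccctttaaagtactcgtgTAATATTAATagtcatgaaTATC
Hand2: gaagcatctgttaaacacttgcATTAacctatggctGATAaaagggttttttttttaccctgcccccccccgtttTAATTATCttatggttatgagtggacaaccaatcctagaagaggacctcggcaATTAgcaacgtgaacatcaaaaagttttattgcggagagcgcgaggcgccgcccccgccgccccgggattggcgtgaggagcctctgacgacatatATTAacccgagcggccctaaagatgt
Phox2a: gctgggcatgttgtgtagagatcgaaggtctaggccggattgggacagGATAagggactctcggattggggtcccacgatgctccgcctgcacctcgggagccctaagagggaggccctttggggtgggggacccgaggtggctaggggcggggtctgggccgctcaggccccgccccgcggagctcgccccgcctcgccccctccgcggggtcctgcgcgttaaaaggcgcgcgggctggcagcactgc

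The homeodomain core occurred 6 times before Tfap2b, 5 times before Hand2 and 2 times before Isl1, with 0 matches before Phox2a, and 54.9% of 32851 RefSeq windows of the same length held it. GATA letters on either strand occurred 2 times before Hand2 and 1 time each before Isl1, Tfap2b and Phox2a, against 53.6% of all windows with a match. In Hand2 and Isl1 a GATA match shares bases with a TAAT or ATTA match. The E-box CANNTG of Hand1 and Hand2 occurred 2 times before Hand2 and 1 time each before Isl1 and Tfap2b (66.2% of all windows), and the AP-2 core GCCNNNGGC of Tfap2b in none of these 4 windows (13.7% of all windows). This core occurred 3 times before Gata3 and 1 time in the Gata2 window at chr6:88198414-88198663, with 0 matches in the other Gata2 window. The windows of Gata3 and Gata2 held none of the other 3 motifs. Base composition differed between the windows, G and C making up 46.4% of the Tfap2b and 49.2% of the Hand2 window against 71.2% of the Isl1, 70.4% of the Phox2a and 70% of the Gata3 window. The RefSeq table matched 6 of the 8 factors.

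Of the homeodomain factors, Phox2a (chromosome 7, 101818313 to 101822726, GRCm38 as for all coordinates here) encodes a paired-like factor that activates Dbh. It stood at 45.8, 54.1 and 46.6 CPM in the KO libraries and at 26.1, 33.0 and 25.7 CPM in the WT libraries. The lowest KO library lay 1.39-fold above the highest WT library, and the log2 fold change was 0.79 with an SE of 0.13 (edgeR adjusted p = 0.0489), just inside the threshold. The last exon of Phox2a shares 95 bases with exons of Inppl1 on the other strand, a lipid phosphatase gene whose level was 81.0 ± 8.59 CPM in KO and 80.9 ± 5.38 CPM in WT (SD, n = 3 each, edgeR adjusted p = 0.995).

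Isl1 (chromosome 13, 116298281 to 116309689) encodes a LIM homeodomain factor that sympathetic neurons of the mouse need to mature. Its level was 15.2, 18.8 and 15.9 CPM in KO against 4.39, 6.48 and 5.62 CPM in WT. The groups were further apart than in any other of the 8, with the lowest KO library 2.35-fold above the highest WT library. The log2 fold change, 1.60 with an SE of 0.18 (edgeR adjusted p = 0.0204), was exceeded by 3.2% of all tested loci. Over 17 other settings its log2 fold change ranged from 1.46 to 1.83.

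Hand1 (chromosome 11, 57828705 to 57832818) and Hand2 (chromosome 8, 57320983 to 57324633) encode related basic helix-loop-helix proteins, of which Hand2 is needed for the noradrenergic phenotype of sympathetic cells in mouse and zebrafish. Hand1 stood at 50.8, 49.8 and 46.0 CPM in KO and at 22.8, 27.0 and 21.1 CPM in WT, with 1.05 as the log2 fold change and 0.12 as its SE (edgeR adjusted p = 0.02). Hand2 stood at 75.7, 76.9 and 74.4 CPM in KO and at 38.1, 48.6 and 32.4 CPM in WT, with 0.93 as the log2 fold change and 0.15 as its SE (edgeR adjusted p = 0.0464). The KO libraries were nearly level in Hand2, while WT replicate 2 lay above the other WT libraries in both genes. Their transcripts share no exact run longer than 17 bases, which is shorter than a read.

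The antisense neighbour of Hand2 moved with it. Hand2os1, a long non-coding RNA gene that runs from inside Hand2 into the region upstream of it on the other strand (chromosome 8, 57281117 to 57324233, merged in the table with the pseudogene Gm17994), was counted 6619, 5195 and 7649 times in KO, against 2951, 4241 and 2090 times in WT. It rose 2.13-fold, to 62.4 ± 5.01 CPM in KO against 29.4 ± 3.4 CPM in WT (SD, n = 3 each, edgeR adjusted p = 0.018). Exons of the pair overlap over 461 bases, which is 19.6% of the exonic length of Hand2 and 3.59% of that of Hand2os1, and since the sources do not say whether counting used strand, reads in the overlap may not be told apart. Without 1 library Hand2os1 was called in 2 of 6 fits, with adjusted p from 0.0209 to 0.1.

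Gata2 (chromosome 6, 88193891 to 88207032) and Gata3 (chromosome 2, 9857078 to 9890034) encode zinc finger proteins that bind the letters GATA, and mouse embryos without Gata3 lack noradrenaline. Gata3 had 49.3, 52.9 and 50.5 CPM in KO and 21.3, 31.7 and 24.4 CPM in WT, with 0.98 as the log2 fold change and 0.15 as its SE (edgeR adjusted p = 0.0442). The table merges Gata3 with 9230102O04Rik, which shares 77 bases of exon with it, and the counts of the pair cannot be separated. Gata2 had 114, 97.4 and 76.3 CPM in KO and 53.0, 66.3 and 48.0 CPM in WT, with 0.78 as the log2 fold change and 0.18 as its SE (edgeR adjusted p = 0.0852). Its KO libraries spread more than its WT libraries, and KO replicate 3 lay 1.15-fold above WT replicate 2, the narrowest gap among the 8. Without KO replicate 3 the log2 fold change of Gata2 was 0.92, and those of the other 7 were between 0.82 and 1.63.

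Mast cell and endothelial markers, of cells that also make Gata2, had the opposite sign, and T cell markers were mixed. All 8 mast cell markers were lower in KO, with a median log2 fold change of -3.31, none called and a summed level of 7.91 to 12.7 CPM in KO against 62.5 to 78.5 CPM in WT. The mast cell proteases Cpa3 and Tpsb2, at 0.408 to 1.42 and 0.0272 to 0.801 CPM in KO, were high in WT replicates 1 and 2, at 9.88 to 13.8 and 7.82 to 13 CPM, and at 0.948 and 0.237 CPM in WT replicate 3. Hdc, the histamine enzyme, had 7.32, 5.68 and 10.1 CPM in KO and 11.4, 24.2 and 61.2 CPM in WT, and it made up most of the sum in WT replicate 3. Kit, the stem cell factor receptor, was listed with the trophic receptors and not with the mast cell markers. It fell to 4.87 ± 0.266 CPM in KO against 10.9 ± 0.904 CPM in WT (SD, n = 3 each, edgeR adjusted p = 0.02, and 0.0247 to 0.112 with 1 library left out, called in 2 of 6 fits). Kit did not share the low level of Cpa3 and Tpsb2 in WT replicate 3, with 10.8, 9.99 and 11.8 CPM in WT replicates 1, 2 and 3. All 8 endothelial markers were lower as well (median log2 fold change -0.38, none called, summed level of 560 to 682 CPM in KO against 739 to 867 CPM in WT), Pecam1 and Cdh5 with the smallest p at 0.778-fold and 0.764-fold. T cell markers summed to 30.1 to 44.1 CPM in KO and 25.2 to 87.4 CPM in WT with 4 of 8 positive and none called (median log2 fold change -0.09). Their smallest p belonged to Il7r (log2 fold change -3.63) and Lck (0.45). Levels differed within the list, with the T cell receptor components Cd3e and Cd3g under 1.5 CPM in every library and Il7r at 39.9 CPM in WT replicate 2. The part of mast cells, endothelium and T cells in the values of Gata2 and Gata3 was not tested.

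Insm1 (chromosome 2, 146221921 to 146225020) encodes a zinc finger repressor needed for chromaffin cell differentiation in the mouse. It had 23.3, 23.2 and 24.0 CPM in KO and 10.3, 15.5 and 13.4 CPM in WT, with 0.85 as the log2 fold change and 0.16 as its SE (edgeR adjusted p = 0.0571), just outside the threshold. Its KO libraries were nearly level and lay at least 1.5-fold above WT. Tfap2b (chromosome 1, 19208914 to 19238576) encodes AP-2 beta, a factor of neural crest and noradrenergic neurons. It had 28.0, 27.8 and 27.5 CPM in KO and 10.6, 14.5 and 12.1 CPM in WT, with 1.16 as the log2 fold change and 0.13 as its SE (edgeR adjusted p = 0.0204). The lowest KO library lay 1.9-fold above the highest WT library, and the SD of the KO libraries was 0.904% of their mean against 15.9% in WT.

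**Figure D2:**
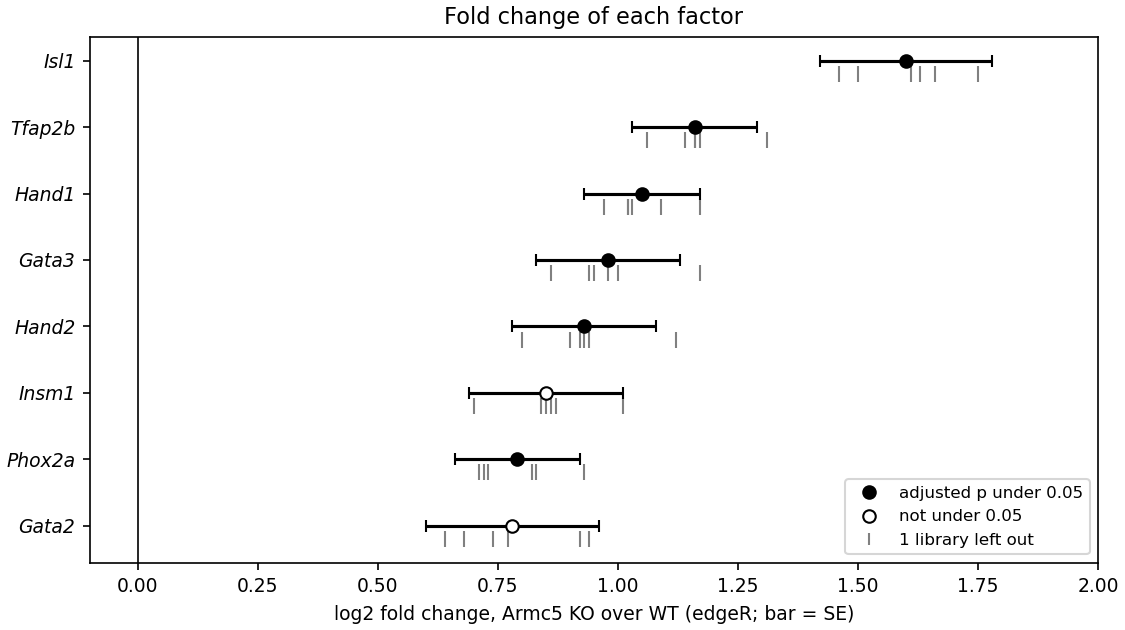
Fitted log2 fold change of each factor, KO over WT, with its SE (filled points have an adjusted p under 0.05), and below each point the values after leaving out each library in turn (grey ticks). Isl1 stands apart at 1.60, the others lie between 0.78 and 1.16, and no tick reaches 0.

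For all factors but Gata2 the WT libraries spanned a wider range than the KO libraries. The range over 3 libraries had a median of 0.12 on the log2 CPM scale in KO and 0.51 in WT for the 8 factors, against 0.28 in KO and 0.40 in WT for 15263 loci with a mean of at least 1 CPM. WT replicate 2 was the highest WT library for all 8 factors, and the lowest was WT replicate 1 or WT replicate 3, for 4 factors each. Centred on its mean over the 6 libraries, the median factor lay at 0.53, 0.55 and 0.46 in KO and at -0.66, -0.18 and -0.60 in WT on the log2 scale. The mean of the 15 secretory genes took nearly the same course, 0.45, 0.38 and 0.39 in KO and -0.59, -0.09 and -0.54 in WT.

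Ranked by mean CPM per kilobase of exonic length, Hand2 was the most abundant of the 8 in both groups, at 32.2 ± 0.522 in KO and 16.9 ± 3.5 in WT (SD, n = 3 each). Hand1 (24.5 ± 1.26 in KO and 11.8 ± 1.5 in WT) and Phox2a (24.0 ± 2.25 in KO and 13.9 ± 2.02 in WT) came next, in a different order in the groups, and lay within overlapping SDs of each other in both. Gata2 followed at 14.9 ± 2.92 in KO and 8.66 ± 1.46 in WT, then Gata3 at 9.60 ± 0.343 in KO and 4.87 ± 0.998 in WT, and Insm1 at 7.59 ± 0.132 in KO and 4.21 ± 0.846 in WT. Tfap2b (4.38 ± 0.0396 in KO and 1.96 ± 0.311 in WT) and Isl1 (4.21 ± 0.481 in KO and 1.39 ± 0.266 in WT) were lowest. Tfap2b and Isl1 in KO differed by less than the spread of their libraries. The length behind the value of Gata3 is that of the merged locus. Over the 3978 exonic bases of Gata3 alone, with all counts given to it, its level was 12.8 ± 0.458 in KO and 6.49 ± 1.33 in WT (SD, n = 3 each). The level of Gata3 thus depends on the length used, while its place between Gata2 and Insm1 was the same in both groups.

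Set against the secretory genes of the same library, 4 of the factors were separated between the groups and the other 4 were not. Of all 21358 tested loci, 2.22% had every KO library above every WT library on this scale. That share is low by construction, since the secretory genes were themselves higher in KO. Their median log2 fold change was 0.85, against -0.01 over all loci. It is therefore no background for other genes of chromaffin cells. The measure was the log2 CPM of a factor minus the mean log2 CPM of 15 genes of catecholamine synthesis and storage granules, Th, Dbh and Chga among them. Isl1 lay at -3.60, -3.23 and -3.48 in KO and at -4.36, -4.30 and -4.05 in WT, a difference of 0.80 in the log2 ratio. Tfap2b lay at -2.70 ± 0.03 in KO and -3.06 ± 0.10 in WT, Hand1 at -1.88 ± 0.06 in KO and -2.12 ± 0.13 in WT and Gata3 at -1.82 ± 0.08 in KO and -2.01 ± 0.07 in WT (SD, n = 3 each). The separation of Gata3 was slight, KO replicate 1 at -1.91 lying next to WT replicate 3 at -1.93. Each of these 4 had an exact permutation p of 0.1 (two-sided), the smallest that 3 against 3 allows, among 8 such comparisons. The 15 secretory genes themselves ranged from 0.12 to 1.27 in log2 fold change, and every factor but Isl1 lay within this range.

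The other 4 factors overlapped between the groups on this scale. Hand2 lay at -1.25 ± 0.04 in KO and -1.39 ± 0.14 in WT, Insm1 at -2.94 ± 0.05 in KO and -2.99 ± 0.17 in WT, Phox2a at -1.89 ± 0.16 in KO and -1.87 ± 0.08 in WT, and Gata2 at -0.93 ± 0.26 in KO and -0.89 ± 0.11 in WT (SD, n = 3 each). Their exact permutation p ranged from 0.3 to 1, and differences of 0.06 or less for Insm1, Phox2a and Gata2 changed sign when single libraries were left out. With the sympathetic neuron markers as the yardstick the difference between KO and WT was 0.66 for Isl1, 0.23 for Tfap2b, 0.11 for Hand1 and 0.05 for Gata3 on the log2 scale, so that those of the last 3 shrank by over 1.5 times. With Th alone it was 0.84, 0.41, 0.29 and 0.23 for the same 4 factors.

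**Figure D3:**
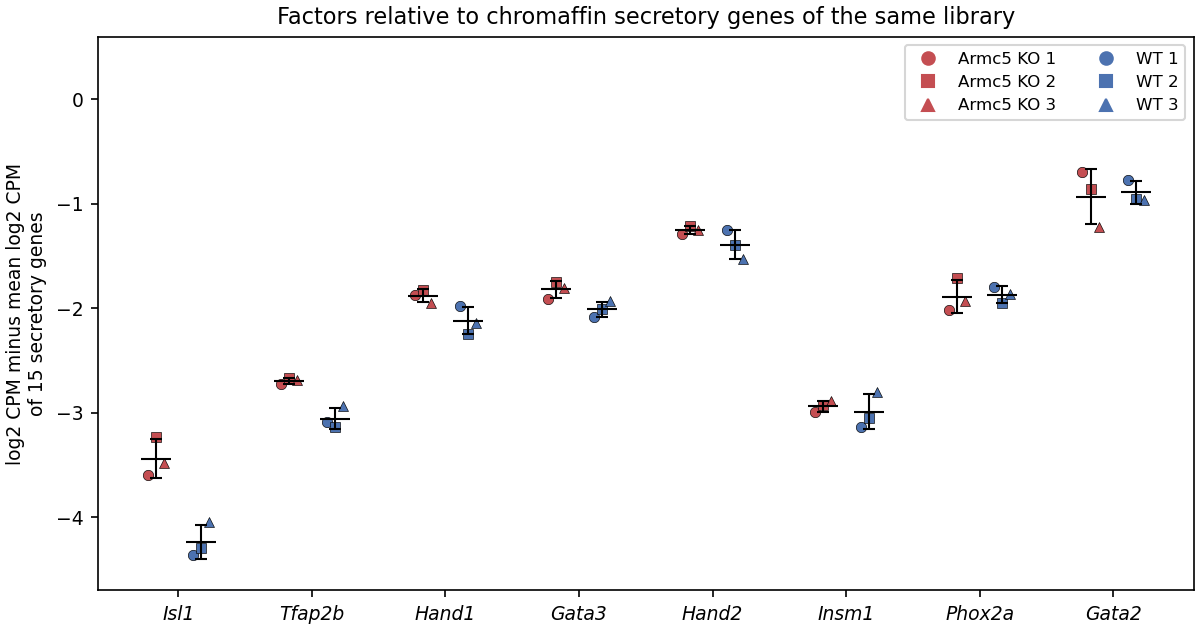
Log2 CPM of each factor minus the mean log2 CPM of 15 chromaffin secretory genes in the same library, KO (red) left of WT (blue), with mean and SD of 3 libraries. Isl1, Tfap2b, Hand1 and Gata3 are separated between the groups, by 0.80, 0.36, 0.24 and 0.19 in their means, and the other 4 overlap.

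Secretory genes, neuronal markers and other lineage factors moved to different degrees. All 15 secretory genes had positive log2 fold changes (median 0.85), and 4 of them rose: Scg3 and Chga, granins of the storage granules, Pcsk1, a protease of prohormones, and Dbh, by 2.08-fold, 1.83-fold, 2.33-fold and 1.73-fold (edgeR adjusted p from 0.0202 to 0.0464). Pnmt, the enzyme that makes adrenaline, was at 328 ± 40.7 CPM in KO and 182 ± 32.7 CPM in WT (SD, n = 3 each) and did not pass (edgeR adjusted p = 0.0578). Of 12 markers of sympathetic neurons, 10 were positive (median 0.95) and 4 rose, Nefm, a neurofilament, 7.43-fold, Tubb3, a neuronal tubulin, 2.75-fold, Chrnb4, a nicotinic receptor subunit, 2.02-fold and Stmn2, a tubulin-binding protein of growing neurites, 1.97-fold (edgeR adjusted p from 0.00465 to 0.0465). Several of these markers are also made by chromaffin cells. Prph and Gap43, markers of neurites, were under 1.6 CPM in every library, with log2 fold changes of 0.12 and -0.59. Without 1 library Nefm was called in 6 of 6 fits, Tubb3, Chrnb4, Scg3 and Pcsk1 in 2 and Stmn2, Chga and Dbh in 1, and the adjusted p of these 8 genes reached 0.185.

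Among 13 other factors of the lineage, 9 were positive (median 0.22), and Mycn was the 1 that passed. Mycn, the growth-promoting factor amplified in human neuroblastoma, stood at 10.6, 13.2 and 11.2 CPM in KO and at 5.38, 6.74 and 5.30 CPM in WT, 2.00-fold higher (edgeR adjusted p = 0.0443, and from 0.0349 to 0.162 with 1 library left out, called in 1 of 6 fits). Tbx2 and Tbx3, T-box factors, had negative log2 fold changes of -0.56 and -0.27, neither of which passed.

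Of 8 measured neuroendocrine factors, 5 were positive (median 0.59). Myt1l, a zinc finger factor of neurons, rose 2.24-fold, to 6.01 ± 0.709 CPM in KO against 2.68 ± 0.46 CPM in WT (SD, n = 3 each, edgeR adjusted p = 0.0468, and 0.041 to 0.185 with 1 library left out, called in 1 of 6 fits). Scrt2, a repressor of the Snail family in neurons, was 2.60-fold higher without passing (edgeR adjusted p = 0.0662). Rest, which represses neuronal genes in other cells, was at 63.0 ± 1.07 CPM in KO and 64.8 ± 1.61 CPM in WT (SD, n = 3 each).

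The paralogs of the 8 factors had mixed values, with 4 of 7 tested positive, a median of 0.04 and none called. Insm2, a paralog of Insm1, was at 11.3 ± 2.62 CPM in KO and 3.33 ± 1.52 CPM in WT (SD, n = 3 each, 3.38-fold, edgeR adjusted p = 0.0673). Gata6, the GATA factor of the adrenal cortex, was at 111 ± 10.6 CPM in KO and 125 ± 7.54 CPM in WT, a log2 fold change of -0.17 against 0.98 for Gata3. Gata1, the erythroid member, was at 0.102 ± 0.0752 CPM in KO and 0.376 ± 0.116 CPM in WT. Tfap2a stayed under 1 CPM on average in both groups, and Isl2 and Tfap2d had no counts in any library.

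Cofactors of the 8 did not share their direction. Of 20 genes for E proteins, Id proteins, LIM and GATA cofactors and the Insm1-binding demethylase complex, 8 were positive and 12 negative (median -0.13), and 1 was called. Id4, an inhibitor of helix-loop-helix dimers, rose 4.80-fold, with 18.8, 16.1 and 18.9 CPM in KO against 3.55, 5.13 and 2.53 CPM in WT (edgeR adjusted p = 0.0205, and 0.0184 to 0.109 with 1 library left out, called in 1 of 6 fits). Id3, of the same family, was at 11.9 ± 2.48 CPM in KO and 20.9 ± 0.969 CPM in WT (SD, n = 3 each) and did not pass (edgeR adjusted p = 0.0633). Tcf12, an E protein that pairs with the Hand factors, and Kdm1a, the demethylase, had log2 fold changes of 0.11 and 0.09. The other E proteins of the list, Tcf3 and Tcf4, had -0.25 and -0.55 without passing (edgeR adjusted p = 0.174 and 0.162).

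Among signalling genes, Kit was the 1 called in the main fit. Of 17 genes of bone morphogenetic protein signalling 8 were positive (median -0.07) and none was called, Chrd, an antagonist of these ligands, and Acvr1, a receptor, having the smallest p with log2 fold changes of -0.83 and -0.49 (edgeR adjusted p = 0.0683 and 0.0723). Of 10 trophic receptor genes 6 were positive (median 0.43). DESeq2 called 1 bone morphogenetic protein gene higher and 3 lower, and 2 trophic receptor genes higher and 1 lower. Over 21904 loci it called 1401 higher and 756 lower. Ret, the GDNF receptor of the lineage, was at 1.14 ± 0.511 CPM in KO and 1.49 ± 0.261 CPM in WT (SD, n = 3 each).

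**Figure D4:**
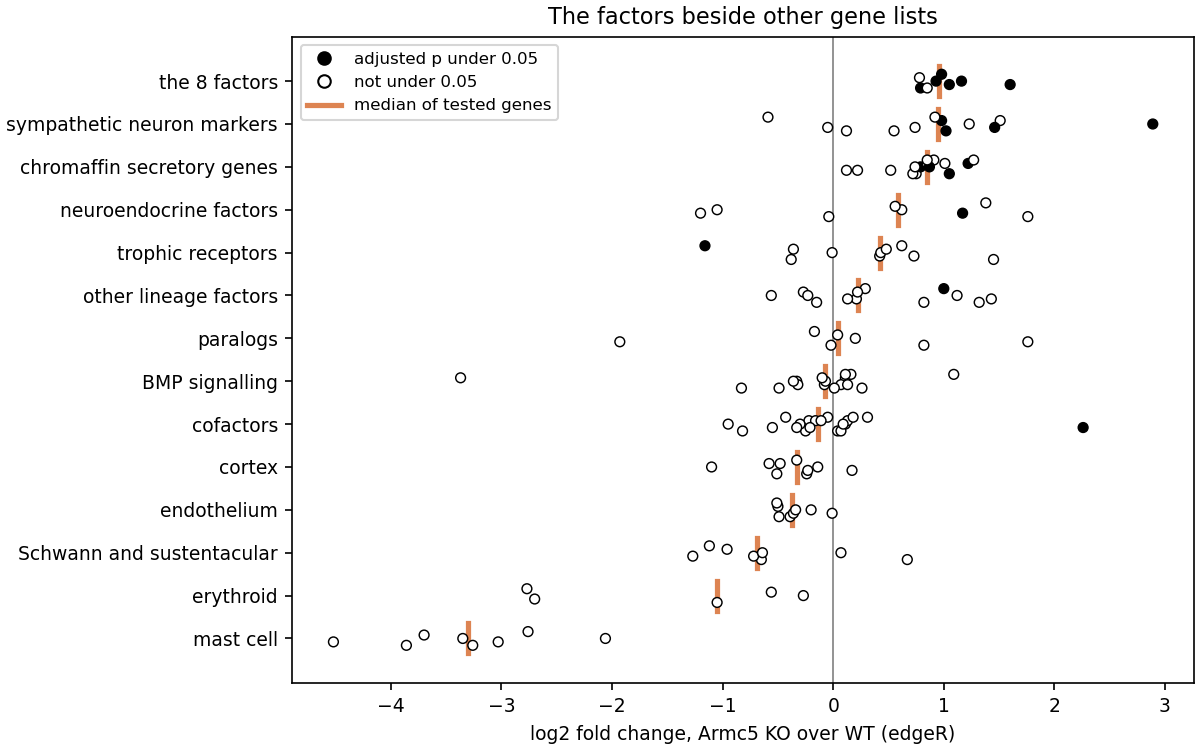
Log2 fold change, KO over WT, of each tested gene in the 8 factors and 13 other lists (filled points have an adjusted p under 0.05, the orange bar is the median of the tested genes). The factors, the sympathetic neuron markers and the secretory genes have medians of 0.95, 0.95 and 0.85, while cortical, endothelial, Schwann, erythroid and mast cell markers have negative medians.

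Most markers of the other cells of the gland had negative log2 fold changes, with none called in the main fit. DESeq2 called 2 cortical, 2 endothelial, 2 mast cell, 1 T cell and 1 Schwann or sustentacular marker lower and none of these higher. It called 756 of 21904 loci lower. With limma-voom and quality weights 2 cortical markers were called lower, beside 486 of 21358 loci. Cortical genes had 8 of 9 members negative (median -0.33, none called), Star and Cyp11a1 with log2 fold changes of -1.10 and -0.58. Schwann and sustentacular cell markers, of cells that wrap chromaffin cells and share their neural crest origin, had 6 of 8 negative (median -0.69, none called). Erbb3, a neuregulin receptor and the most abundant of these markers, had the opposite sign, at 18.2 ± 3.7 CPM in KO and 11.4 ± 2.98 CPM in WT (SD, n = 3 each, edgeR adjusted p = 0.168). Fabp7, a fatty acid binding protein, was at 0.193 ± 0.0273 CPM in KO and 0.467 ± 0.129 CPM in WT (SD, n = 3 each). The summed level of these markers was 21.7 to 30.1 CPM in KO and 19.7 to 30.1 CPM in WT. Erythroid markers, summing to 2.72 to 7.68 CPM in KO and 8.78 to 19.5 CPM in WT, were negative in 5 of 5 (median -1.05, none called), Slc4a1 and Alas2 with log2 fold changes of -2.77 and -1.05. The 4 liver genes tested had a median of 7.31 with none called, Apoa1 and Ttr at 7.04 and 7.84. Together with 2 liver genes that did not pass the filter, they summed to 0.344 to 2790 CPM in KO and 0.15 to 15.1 CPM in WT. Scaled by total counts, the medians of the cofactors, the bone morphogenetic protein genes and the T cell markers turned positive (0.11, 0.15 and 0.11), as they did with equal counts of Rn7sk (0.06, 0.13 and 0.10), and the other medians kept their sign. The part of any of these cells in the values of the 8 factors was not tested.

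Genes with the course most like that of a factor were found by the root mean square distance between centred log2 CPM values over the 6 libraries, among 15263 loci. The nearest to Hand2 were Adcyap1r1, Rab3c and Slc18a1 (distances of 0.02, 0.037 and 0.0492), to Hand1 Tox3, Dgkg and Adgra1 (0.0247 to 0.0491) and to Phox2a Kcnc4, Snap25 and Apbb1 (0.0527 to 0.0603). Nearest to Isl1 were Plppr4, Nrip3 and Dsg2 (0.07 to 0.142), to Tfap2b Zkscan16 and Rps6ka6 (0.0548 and 0.0606), and to Gata3 Mdga1, Ankrd34a and Zkscan16 (0.042 to 0.0593). Gata2 and Insm1 had predicted or clone loci as their nearest, Gm44801, Gm21846 and Gm15834 for Gata2 (0.0405 to 0.0752) and Gm3854, 4933406P04Rik and Gm36638 for Insm1 (0.0498 to 0.0668). Among the 8 themselves Hand1 and Hand2 were closest (0.0915), followed by Gata3 and Insm1 (0.0945), and Gata2 and Isl1 were farthest apart (0.484). Other loci lay closer than these pairs, as Hand2 ranked 24 among the loci nearest to Hand1 and Gata3 ranked 10 for Insm1. For Phox2a and Gata2 the nearest other factor, Hand2, ranked 156 and 217.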

How the data were processed

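RNA of 3 Armc5 KO and 3 WT adrenal gland samples was measured by paired-end sequencing of directional, rRNA-depleted libraries, per the labels' protocols. The genome build GRCm38 and the tools StringTie, STAR, Trimmomatic, edgeR and Picard are named, per the submitters' processing notes. Their versions, the program that counted reads and its use of strand are not given here. The authors deposited raw read counts for 59699 loci, log2 CPM values, log2 values scaled to Rn7sk and lengths in base pairs, per the file headers. Loci follow StringTie, so a locus can merge genes; a locus entered a gene list when its protein-coding genes all belonged to that list, and the merged Gata3 locus was kept.

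The 6596 loci without a gene name (1.39% to 2.04% of counts) were left out. Named loci passed through filterByExpr, and their counts were scaled with TMM and tested with edgeR 4.0.16 (glmQLFit robust, glmQLFTest, two-sided, R 4.3.3), and the SE is the log2 fold change divided by the square root of F. CPM values use TMM-scaled library sizes, and log2 CPM values a prior count of 2. The deposited length was taken as exonic length; it equalled that of GENCODE M21 (GRCm38) in 88.7% of 51180 single-gene loci. Nothing says that samples were separate animals, so p-values reflect only sample-to-sample spread, which may be technical. Named genes are the 8 factors, their neighbours within 10 kb, called genes of 15 lists or the 2 with the smallest p, and the 3 loci nearest in pattern. Pnmt, Prph, Gap43, Tbx2, Tbx3, Rest, Gata1, Gata6, Tfap2a, Isl2, Tfap2d, Tcf3, Tcf4, Tcf12, Kdm1a, Ret, Tpsb2, Cd3e, Cd3g and Alb fall outside this rule and were chosen after their values were seen. Some genes that this rule names are not reported here. The members and lists were chosen with earlier results of these data known. Alternatives were RLE, total counts alone, equal Rn7sk counts, other filters, unnamed loci kept, a replicate block, leaving out libraries, DESeq2 1.42.0, limma-voom with quality weights, limma 3.58.1 on the log2 CPM deposited by the authors, and a log2 fold change of at least 1.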

Additional observations from a re-analysis of the deposited data

How the results depend on the processing

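All 8 factors kept a positive log2 fold change in all 17 refits. The number called higher was 6 with RLE factors, total counts alone, no filter or at least 10 CPM, 7 with equal Rn7sk counts or limma-trend, 8 with DESeq2 and limma-voom, and 4 with unnamed loci kept, where Phox2a and Hand2 were lost. It was 0 with WT replicate 1 and KO replicate 3 both left out, 3 where a log2 fold change of 1 was also required, and from 0 to 7 with 1 library left out. The median log2 fold change of the 8, 0.95, was 1.17 with total counts alone, 1.15 with equal Rn7sk counts, 1.20 with limma-trend and 0.88 to 1.14 with 1 library left out; relative to the median of all loci it was 0.95 with total counts alone or equal Rn7sk counts. The 393 calls over all loci became 674 with total counts alone, 721 with equal Rn7sk counts (94.2% higher), 975 with limma-trend (94.5% higher), 2157 with DESeq2 (65.0% higher), 1503 with limma-voom, 240 where a log2 fold change of 1 was also required, 16 with WT replicate 1 and KO replicate 3 left out, and 15 to 644 with 1 library left out (53.0% higher without WT replicate 1). Same-numbered KO and WT libraries did not deviate together (r = -0.09, 0.01 and -0.14 across loci). With 3 libraries per group these values cannot settle whether the numbers pair the samples. With the replicate number as a block 5 loci and 0 of the 8 were called (edgeR adjusted p from 0.107 to 0.15). Relative to the secretory genes, Phox2a (-0.02, and -0.10 to 0.05 with 1 library left out) turned to 0.05 without KO replicate 1, 0.02 without WT replicate 1, 0.04 without both WT replicate 1 and KO replicate 3, and 0.03 against Th. Gata2 (-0.04, and -0.15 to 0.11) turned to 0.11 without KO replicate 3, 0.02 without WT replicate 1, 0.17 without both, and 0.01 against Th. Insm1 (0.06, and -0.01 to 0.16) turned to -0.01 without WT replicate 1, -0.04 without both and -0.08 against the sympathetic neuron markers. The cause of these shifts was not tested. The factors had at least 444 counts in each library, and the part of depth in the calls was not tested.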

Other observations

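Of the other loci within 10 kb of a factor, none of those that passed the filter was called. Cfap61, a gene of motile cilia that ends 6882 bases before Insm1 on the same strand, was counted 1314, 581 and 1110 times in KO, against 74, 396 and 48 in WT, a 6.35-fold difference that did not pass (edgeR adjusted p = 0.0952), although the groups did not overlap. Upstream of Hand2, an unnamed locus on the other strand at a distance of 8431 bases was counted 455, 389 and 531 times in KO, against 235, 358 and 113 in WT. This upstream locus lies within the span of Hand2os1 and on its strand. Downstream, an unnamed locus on the strand of Hand2, 1342 bases after its end, was counted 108, 111 and 140 times in KO, against 59, 120 and 30 in WT. In the fit with unnamed loci kept, the adjusted p of these loci was 0.117 and 0.242. Gm34030, 7059 bases downstream on the other strand, was counted 363, 220 and 364 times in KO, against 212, 306 and 114 in WT (edgeR adjusted p = 0.203), and 5033428I22Rik was counted 250, 265 and 929 times in KO, against 84, 123 and 272 in WT, with replicate 3 the highest of both groups (edgeR adjusted p = 0.304).

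Antisense loci inside the other factors were near the floor. An unnamed locus of 376 bases inside Insm1 on the other strand had 29, 3 and 44 counts in KO and 30, 25 and 3 in WT, where Insm1 itself had 1038 to 3103 in the 6 libraries. The locus 4930412O13Rik, which overlaps Gata3 on the other strand without sharing exons, had 27, 46 and 42 counts in KO and 21, 56 and 18 in WT (edgeR adjusted p = 0.654). Gm13256, which shares 155 bases of exon with Gata3 on the other strand, had 6, 0 and 3 counts in KO and 0 in each WT library. An unnamed locus that overlaps the start of Gata2 on the other strand had 23, 27 and 43 counts in KO and 11, 47 and 16 in WT.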
